A study of Homo sapiens with 8 samples.

Results

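The genes described here encode factors of translation elongation, termination and ribosome recycling: EEF1A1, EEF1B2, EEF1D, EEF1G, EEF2, EEF2K, ETF1, GSPT1, ABCE1 and PABPC1. These 10 genes were chosen by name, and all 10 are among the 26830 gene symbols measured. By their labels, the samples were 8 libraries from 4 cultures of a single HEK293T clone that carries the nuclease Cas9. Of these, 3 cultures received lentiviral guides against METTL16, an RNA methyltransferase. They are named sgMETTL16-1, sgMETTL16-2 and sgMETTL16-3, with a different guide in each, and 1 culture received the negative control guide sgNS. All 4 cultures carried Cas9, were under selection with blasticidin (10 µg/ml) and puromycin (2 µg/ml) for at least 1 week, and were treated with cycloheximide, which stalls elongating ribosomes, at 100 µg/ml for 5 min. From each culture came 1 input library and 1 library of ribosome footprints, the fragments of 17 to 34 nt that a ribosome shields. The control is therefore 1 culture, each guide is 1 culture, and the spread among METTL16 cultures also holds what differs between guides. Series of 3 values are in the order sgMETTL16-1, sgMETTL16-2, sgMETTL16-3, and series of 4 have sgNS before these.

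In elongation, eEF1A (EEF1A1) brings an aminoacyl-tRNA to the ribosome as a complex with GTP, and the exchange complex of EEF1B2, EEF1D and EEF1G reloads it with GTP. eEF2 (EEF2) then moves the ribosome by a codon, and the kinase EEF2K switches it off by phosphorylation. At a stop codon eRF1 (ETF1) and its GTPase partner eRF3 (GSPT1) release the protein, the poly(A)-binding protein PABPC1 contacts eRF3, and the ATPase ABCE1 splits the ribosome for recycling. The mRNAs of EEF1A1, EEF1B2, EEF1D, EEF1G, EEF2 and PABPC1 are known as TOP mRNAs. These begin with a C and a run of pyrimidines, as ribosomal protein mRNAs do, and are translated under the control of mTOR.

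The starts of the annotated transcripts are shown because the pyrimidine run that defines a TOP mRNA lies there. RefSeq start sequences (GRCh38.p14) were matched for 8 members, with EEF1D and PABPC1 unmatched. Each sequence runs from 10 bases before the annotated start to 20 bases from it, and capitals mark a C at the start followed by at least 4 bases that are each C or T, read on the transcribed strand only.
EEF1A1 (chr6:73521013-73521042, minus strand): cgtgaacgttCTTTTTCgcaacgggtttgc
EEF1B2, downstream start (chr2:206159885-206159914, plus strand): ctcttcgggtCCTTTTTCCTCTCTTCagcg
EEF2 (chr19:3985444-3985473, minus strand): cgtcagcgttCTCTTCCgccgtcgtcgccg
EEF1G (chr11:62573872-62573901, minus strand): cgggcggcttactttgcggcagcgccgaga
ABCE1 (chr4:145098301-145098330, plus strand): gcggctgggcaccgccattttggccggtgg
EEF1A1 and EEF2 carried runs of 7 pyrimidines, and EEF1B2 a run of 16 at 1 of its 2 annotated starts. EEF1G, EEF2K, ETF1, GSPT1 and ABCE1 had no such run at their annotated starts. Of the genes not printed, ETF1 lies at chr5:138506095-138543236, GSPT1 at chr16:11868128-11916654 and EEF2K at chr16:22206278-22288738. One was found at 4.07% of all 35116 annotated RefSeq starts, and 46 of 66 matched ribosomal protein genes had one at 1 start or more.

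Before the members are compared, some facts of the libraries bear on them. The labels name an embryonic kidney line, but all 12 listed hepatocyte markers stood at 10 TPM or more in all 4 inputs, while 5 of 6 HEK293 markers were under 1 TPM there. The sixth, CDH2, stood at 6.23, 10.4, 12.03 and 6.13 TPM. NEFL, NEFM and VIM were listed at 0 in all inputs, but VIM was at 188, 85.2, 78.7 and 43.3 TPM in the footprints, so its 0 in the inputs does not show that it was absent. All 4 blood markers and 2 of 3 fibroblast markers were under 1 TPM in every input. The METTL16 inputs were 5.31, 4.72, 5.25 and 4.16 TPM, a log2 change of -0.68 (SE 0.36, limma adjusted p = 0.482). The footprint value of METTL16 was 19.8 TPM with sgNS, against 0 in each METTL16 library. TPM is a share of transcripts per length, and no read totals come with it, so depth is unknown. Footprint libraries listed from 4362 to 6735 genes above 0, against 17982 to 18805 in the inputs. Protein-coding genes held 11.9% of the sgMETTL16-3 footprint TPM and 26.8% to 28.2% of the other footprint libraries.

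The 10 genes spanned a wide range of input levels, and for 3 pairs of neighbours in their order the ranges over the 4 cultures did not overlap: EEF2 above EEF1G, PABPC1 above EEF1B2, and EEF1D above GSPT1. EEF2 was the highest, at 872, 1075, 1090.3 and 1009.6 TPM. It ranked from 13 to 25 among 18782 protein-coding genes, and its values did not overlap those of EEF1G, the next. EEF1G, the structural subunit of the exchange complex, stood at 576, 828, 725 and 626 TPM. Both genes varied little between cultures, by 1.25 times for EEF2 and 1.44 times for EEF1G from lowest to highest.

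EEF1A1 came next by its mean and was the least even of the abundant members. Its input level was 281 TPM in sgNS, 753 in sgMETTL16-1, 939 in sgMETTL16-2 and 266.5 in sgMETTL16-3. The sgNS and sgMETTL16-3 cultures were thus alike and low, the other METTL16 cultures were high, and sgNS lay inside the range of the METTL16 cultures. EEF1A1 exceeded EEF1G only in sgMETTL16-2, so their order rests on the culture. RefSeq lists 50 EEF1A1 pseudogenes, none of which is among the measured symbols, 8 each for EEF1B2, EEF1D and EEF1G, and 13 for PABPC1, so values of these genes are uncertain where reads match several copies.

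PABPC1 followed, at 203, 266, 303 and 190.2 TPM, with no overlap with EEF1B2 below it. EEF1B2, which catalyses the GTP exchange, stood at 46.8, 96.0, 159.7 and 49.8 TPM. EEF1D, a second exchange subunit, was nearly even at 59.9, 68.9, 63.4 and 55.2 TPM. EEF1B2 was above EEF1D in 2 of 4 cultures, sgMETTL16-1 and sgMETTL16-2, and these neighbours did not differ beyond their spread.

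The termination and recycling genes were lower, and like EEF1A1 and EEF1B2 they were highest in sgMETTL16-2. GSPT1 stood at 14.7, 27.2, 40.5 and 19.5 TPM. ETF1 went from 5.56 in sgNS to 16.0, 31.1 and 10.2 TPM. For both genes sgNS was below every METTL16 culture, as it was in TPM for EEF1B2, EEF1G, EEF2 and ABCE1. The share of all genes with sgNS lowest in TPM was not counted. With each library centred on its median gene, only ETF1 and GSPT1 of the 10 members had sgNS lowest, as had 23.4% of tested genes. On TPM as deposited the median log2 change of all tested genes was itself 0.46. ABCE1 was the lowest by its mean, at 2.94, 6.40, 11.7 and 3.43 TPM, again lowest in sgNS, and EEF2K was at 5.87, 9.0, 7.53 and 5.10 TPM. GSPT1 exceeded ETF1 in all 4 cultures, although their ranges overlap, and ETF1, EEF2K and ABCE1 overlapped as neighbours.

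**Figure D1:**
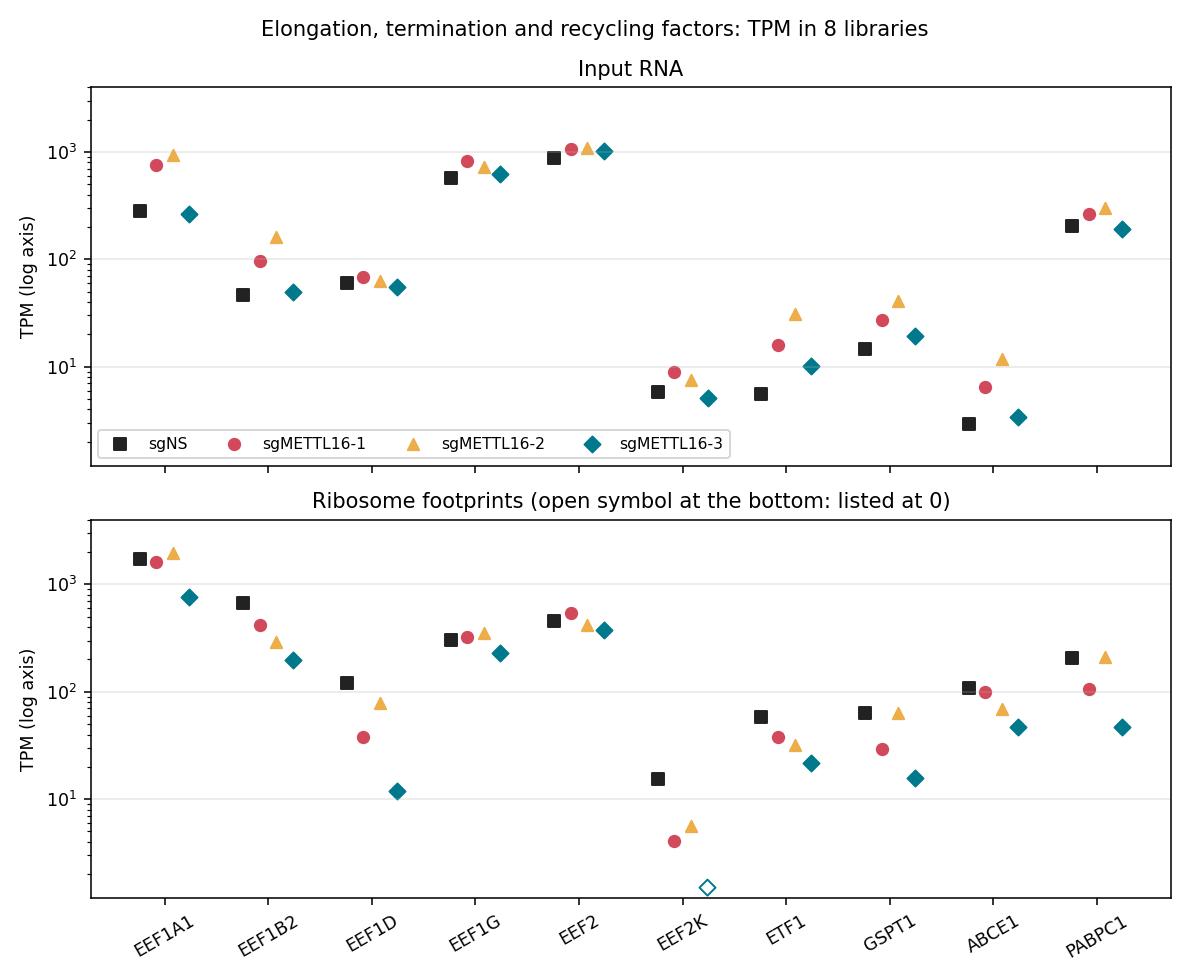
TPM (log axis) of the 10 genes in the input libraries (upper panel) and footprint libraries (lower panel), 1 symbol per culture; an open symbol marks a gene listed at 0. EEF2 and EEF1G are nearly level across the inputs, whereas EEF1A1, EEF1B2, ETF1, GSPT1 and ABCE1 are highest in sgMETTL16-2, and EEF1A1 leads in every footprint library.

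The input comparison asked whether the METTL16 guides changed the abundance of these mRNAs. None of the 10 passed the threshold, a Benjamini-Hochberg adjusted p of 0.05 with limma on log2(TPM + 1) after centring each library on its median gene (1 had an unadjusted p under 0.05). Over all 10967 genes tested, 2.83% passed, 1.58% as higher and 1.25% as lower. Estimates lay above 0 for 5 members and below 0 for 5, with a median of 0.07 against -0.06 over all genes. In a bulk sample, fewer cells that express a gene and less of its RNA per cell cannot be told apart.

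ETF1 had the largest estimate, a log2 change of 0.95 (SE 0.38, 95% interval 0.21 to 1.69, unadjusted p = 0.0120, limma adjusted p = 0.215), with all 3 METTL16 cultures above sgNS. The single differences were 0.74 in sgMETTL16-1, 1.51 in sgMETTL16-2 and 0.60 in sgMETTL16-3. ETF1 passed in 1 of 8 alternatives, without sgMETTL16-3, where its estimate was 1.12. That alternative also called the most genes of any in the input comparison. ETF1 did not pass without sgMETTL16-1 (1.06) or without sgMETTL16-2 (0.67). GSPT1, its partner, was also above sgNS in all 3, by 0.21, 0.62 and 0.22 (log2 change 0.35, 95% interval -0.41 to 1.11, limma adjusted p = 0.876). ABCE1 was at 0.27 and 0.90 in sgMETTL16-1 and sgMETTL16-2 and level with sgNS in sgMETTL16-3 (log2 change 0.39, limma adjusted p = 0.830).

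Within the eEF1 complex the estimates had both signs. EEF1A1 was at 0.78 and 0.95 in sgMETTL16-1 and sgMETTL16-2 but at -0.25 in sgMETTL16-3, giving a log2 change of 0.50 (95% interval -0.38 to 1.38, limma adjusted p = 0.821). EEF1B2 had the same order, with 0.39, 0.97 and -0.08. EEF1D was below sgNS in all 3 cultures (-0.43, -0.70 and -0.29), with a log2 change of -0.47 (95% interval -1.26 to 0.32, limma adjusted p = 0.799), and EEF1G was at -0.11, -0.45 and -0.05. In TPM, EEF1B2 stood at 0.781 times the level of EEF1D in sgNS and at 1.39, 2.52 and 0.902 times in the METTL16 cultures. The difference between subunits was not tested.

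EEF2 (-0.25, 95% interval -1.17 to 0.67), its kinase EEF2K (-0.30, -1.02 to 0.42) and PABPC1 (-0.24, -1.09 to 0.61) had estimates below 0 with limma adjusted p of 0.949, 0.895 and 0.945. The sign of these 3 genes and of EEF1G turned to above 0 both on TPM as deposited and on TPM rescaled over protein-coding genes, and that of EEF1D on TPM as deposited. On those scales the median gene itself lay at 0.46 and 0.31. In all, 4 members had sgNS above the 3 METTL16 cultures, as had 34.2% of all tested genes, and 2 had it below, as had 23.4%.

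**Figure D2:**
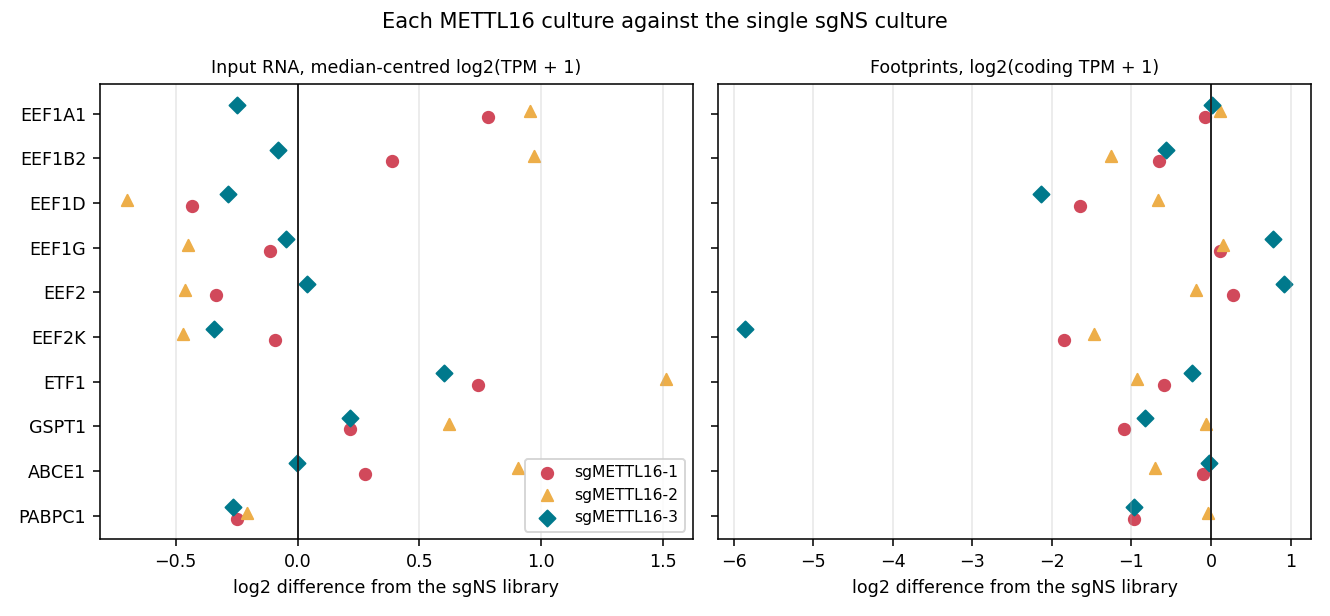
Log2 difference of each METTL16 culture from the single sgNS culture, for input RNA (left, centred on the median gene) and footprints (right, coding TPM); the vertical line marks sgNS. In the input ETF1 and GSPT1 lie right of the line in all 3 cultures, while in the footprints EEF1B2, EEF1D, EEF2K, ETF1, GSPT1, ABCE1 and PABPC1 lie left of it in all 3.

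The pattern of high sgMETTL16-1 and sgMETTL16-2 inputs was shared by other transcripts. EEF1A1, EEF1B2, ETF1 and ABCE1 were highest in sgMETTL16-2 and second in sgMETTL16-1 after centring, an order that was noticed in these values and that 13.0% of all 10967 genes had. Among 325 other protein-coding genes with a mean input of 100 TPM or more, the profiles nearest to EEF1A1 over the 4 inputs were those of lysozyme (LYZ), the ribosomal protein RPL4 and alpha-fetoprotein (AFP), with root mean square differences of 0.11, 0.12 and 0.16 on the log2 scale. AFP, a fetal liver protein, stood at 278, 549.8, 843 and 230.1 TPM. The summed level of the 12 hepatocyte markers was 3945 TPM in sgNS and 7172, 7613 and 4501 TPM in the METTL16 cultures, and protein-coding genes held 20.3%, 25.4%, 26.3% and 20.1% of input TPM. The part of either in the levels of EEF1A1, EEF1B2, ETF1 and ABCE1 was not tested. EEF2 and EEF1G, in contrast, were 170th and 108th in nearness to EEF1A1.

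In the footprints the order of the members differed from that in the input, and EEF1A1 led. It stood at 1722, 1621, 1952 and 768 TPM, above every other member in all 4 libraries and ranked from 4 to 9 among protein-coding genes. EEF2 followed with 452, 544, 417 and 379 TPM. EEF1B2 was at 666, 422, 292 and 199.7 TPM, and EEF1G at 300.5, 323, 350.4 and 229 TPM. EEF2 lay above EEF1G with no overlap, while EEF1B2 overlapped both.

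PABPC1 footprints were at 207, 105.6, 212 and 46.9 TPM. ABCE1, last in the input, was sixth here at 109, 100.5, 69.7 and 47.4 TPM. EEF1D ranged from 12.01 TPM in sgMETTL16-3 to 120.4 TPM in sgNS, the widest range of the members that were above 0 throughout. GSPT1 was at 63.3, 29.3, 63.5 and 15.8 TPM and ETF1 at 57.8, 38.1, 31.7 and 21.6 TPM. EEF2K had 15.3 TPM in sgNS, 4.05 in sgMETTL16-1 and 5.61 in sgMETTL16-2, and was listed at 0 in sgMETTL16-3. Every member except EEF2K was above 0 in all 4 footprint libraries. EEF1A1 and EEF2, EEF1G and PABPC1, and ETF1 and EEF2K were the neighbours whose values did not overlap.

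Since protein-coding genes held so little of the sgMETTL16-3 footprint TPM, footprints were compared as coding TPM, which is TPM rescaled so that the protein-coding genes of a library sum to 1000000. On this scale EEF1A1 was nearly level, at 6396 in sgNS and 6049, 6914 and 6436. All 4 libraries lay within 1.14 times of each other, although the EEF1A1 input varied by 2.68 times on the same scale. Together the 10 genes held from 1.204% to 1.44% of coding footprints and from 1.02% to 1.28% of coding input RNA.

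The footprint comparison asked whether METTL16 guides changed the share of coding footprints on these mRNAs. None of the 10 passed with limma, and none had an unadjusted p under 0.05. Over all 9539 genes tested 6.96% passed, 1.27% as higher and 5.69% as lower, but 663 of those 664 genes were listed at 0 either in sgNS or in all 3 METTL16 libraries, which applied to no member. The estimate for EEF1A1 was 0.01 (95% interval -0.63 to 0.66, limma adjusted p = 0.958). EEF1G (0.35, -1.04 to 1.74) and EEF2 (0.34, -1.55 to 2.23) were above 0, but like EEF1A1 were below it on TPM as deposited and when centred on the median gene.

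The other 7 members had sgNS above all 3 METTL16 libraries, as had 23.2% of all tested genes, and EEF1G had it below, as had 10.7%. EEF1B2 was at 2474 coding TPM in sgNS and at 1574, 1035 and 1674 (log2 change -0.82, 95% interval -2.21 to 0.56, limma adjusted p = 0.683). EEF1D was at 447 in sgNS and at 142, 281 and 100.7 (log2 change -1.48, 95% interval -4.09 to 1.12, limma adjusted p = 0.683). The estimates of PABPC1 (-0.66), GSPT1 (-0.66), ETF1 (-0.59) and ABCE1 (-0.28) were smaller, and that of EEF2K was -3.06 (SE 2.51) with the library listed at 0 and -1.66 without it (limma adjusted p = 0.266). Of the 9 members above 0 in all libraries, 6 had sgNS highest, and among the 1870 genes above 0 in all 4 footprint libraries 27.6% did; sgNS was lowest for 21.7% of these genes.

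Translation efficiency, the question in the title of the series, was tested as a limma interaction between the guide and the library type, on log2(coding TPM + 1). None of the 10 members passed, and none had an unadjusted p under 0.05. Of 8914 genes 5.61% passed, 2.47% as higher and 3.14% as lower, and 498 of these 500 genes were listed at 0 on 1 side of the footprint comparison. The footprint to input ratio of ETF1 was 7.82 in sgNS and 2.26, 0.951 and 3.56, a log2 change of -1.95 (SE 0.98, 95% interval -4.38 to 0.48, limma adjusted p = 0.693). EEF1B2 went from a ratio of 10.7 in sgNS to 4.17, 1.71 and 6.75 (log2 change -1.56, 95% interval -3.60 to 0.48, limma adjusted p = 0.759). For GSPT1 it was 3.24 in sgNS and 1.02, 1.46 and 1.36 (log2 change -1.35, 95% interval -3.54 to 0.84, limma adjusted p = 0.843).

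ABCE1 had ratios of 27.8, 14.9, 5.57 and 23.3, with an estimate of -1.12 (95% interval -3.65 to 1.41). EEF1A1 had a ratio of 4.61 in sgNS, 2.04 and 1.94 in sgMETTL16-1 and sgMETTL16-2, and 4.85 in sgMETTL16-3, so sgNS and sgMETTL16-3 were again alike. EEF2 (0.29, 95% interval -1.27 to 1.84) and EEF1G (0.25, -0.98 to 1.49) had the narrowest intervals and the only estimates above 0, which turned negative on TPM as deposited. In all, 8 of 10 estimates lay below 0, as did 3945 of the 8914 tested genes. The median was -1.21 for the members against 0.69 over all tested genes. Many of the tested genes were listed at 0 in some footprint library, so that median is no like reference for members detected throughout. The median over all genes depended on the setting: it was -0.043 with no filter and -0.039 on TPM as deposited. The ratio was highest in sgNS for 6 of the 9 members above 0 in all 8 libraries and for 41.3% of all 1826 such genes; it was lowest in sgNS for no member and for 11.2% of these genes.

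**Figure D3:**
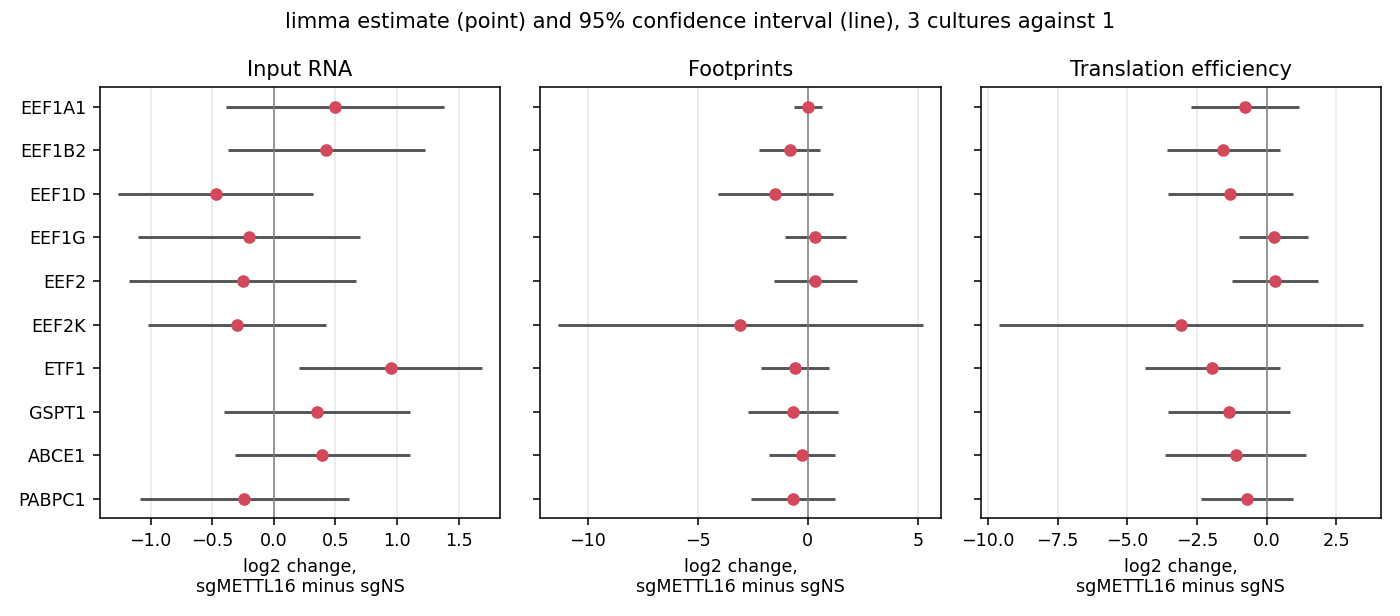
Estimated log2 change between METTL16 cultures (n = 3) and sgNS (n = 1) with its 95% confidence interval for input RNA, footprints and translation efficiency. Apart from ETF1 in the input (0.21 to 1.69) the intervals of all members span 0, and those of EEF2K in the footprints and in translation efficiency are the widest.

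The series also allows the footprint share of each mRNA to be set against its input share in all 4 cultures, and here the members split. ABCE1, EEF1B2 and EEF1A1 held a larger share of coding footprints than of coding input RNA, EEF2 and EEF1G a smaller one. With limma over 8 libraries 3 members passed as higher and 2 as lower, against 3.6% and 3.05% of 8914 genes tested (6.65% in either direction). This fit did not use the pairing of libraries by culture. With the culture as a replicate block the 3 higher calls held and the 2 lower ones were lost. The median gene had a log2 difference of -1.29. Among the 1774 protein-coding genes above 0 in all 8 libraries the median was 0.89, so these call directions are relative to the coding total and not to a typical detected gene.

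ABCE1 stood furthest apart. Its input was at 14.5, 25.2, 44.3 and 17.1 coding TPM, and its footprints at 404, 375, 247 and 398. The 4 footprint values all exceeded the 4 input values, as for 8.45% of all tested genes and 40.0% of the detected ones. The log2 difference was 3.87 (SE 0.58, 95% interval 2.58 to 5.15, limma adjusted p = 0.00614). Of the 1774 detected genes 98.8% had a lower difference. The call was lost only without sgMETTL16-1 (3.87, limma adjusted p = 0.0547), in 1 of 10 alternatives.

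EEF1B2 was at 231, 377, 606 and 248 coding TPM in the inputs and at 2474, 1574, 1035 and 1674 in the footprints (log2 difference 2.25, SE 0.43, limma adjusted p = 0.0189). EEF1A1 went from 1387, 2958, 3564 and 1327 in the inputs to 6396, 6049, 6914 and 6436 in the footprints (log2 difference 1.62, SE 0.35, limma adjusted p = 0.0295). For both genes the input and footprint values did not overlap, as for 8.45% of all tested genes in this direction and 40.0% of the detected ones. EEF1A1 did not pass whichever of the 4 cultures was left out (1.40 to 1.84, limma adjusted p from 0.0561 to 0.130). EEF1B2 did not pass without sgMETTL16-1 (2.31), sgMETTL16-3 (2.08) or sgNS (1.86), with limma adjusted p of 0.111, 0.0773 and 0.0822. With no intensity trend neither gene passed, and EEF1A1 also did not on TPM as deposited (limma adjusted p = 0.0861) or centred on the median gene (limma adjusted p = 0.0734). Among the detected genes 65.6% had a lower difference than EEF1A1 and 79.8% a lower one than EEF1B2.

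EEF2 was at 4305, 4226, 4139 and 5029 coding TPM in the inputs and at 1679, 2032, 1478 and 3175 in the footprints (log2 difference -1.14, SE 0.29, limma adjusted p = 0.0449). EEF1G was at 2842, 3253, 2753 and 3121 in the inputs and at 1116, 1206, 1241 and 1919.9 in the footprints (log2 difference -1.16, SE 0.27, limma adjusted p = 0.0373). Every footprint value was below every input value for both, as for 14.9% of all tested genes and 12.2% of the detected ones. With the culture as a replicate block the limma adjusted p was 0.0560 for EEF2 and 0.0670 for EEF1G, so neither passed, and centred on the median gene the differences were -0.44 and -0.46. Neither passed with no intensity trend or on TPM as deposited. EEF2 did not pass whichever culture was left out (limma adjusted p from 0.0506 to 0.209), and EEF1G, of these leave-outs, passed only without sgMETTL16-3 (-1.31, limma adjusted p = 0.0450).

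PABPC1 was also lower in all 4 footprint libraries than in any input, as were 14.9% of all tested genes and 12.2% of the detected ones. Its ratios were 0.769, 0.377, 0.652 and 0.415, but it did not pass (log2 difference -0.92, 95% interval -1.71 to -0.12, limma adjusted p = 0.125). With no filter on low values, where 9585 genes were called, PABPC1 passed (limma adjusted p = 0.0358). ETF1 (1.46, 95% interval 0.10 to 2.82) and GSPT1 (0.67, -0.48 to 1.83) had estimates above 0 with limma adjusted p of 0.147 and 0.416, and the ratio of GSPT1 was above 1 in all 4 cultures. EEF1D was above its input share in 2 cultures and below it in 2 (-0.39, limma adjusted p = 0.668), and EEF2K above it only in sgNS (-1.36, limma adjusted p = 0.513).

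**Figure D4:**
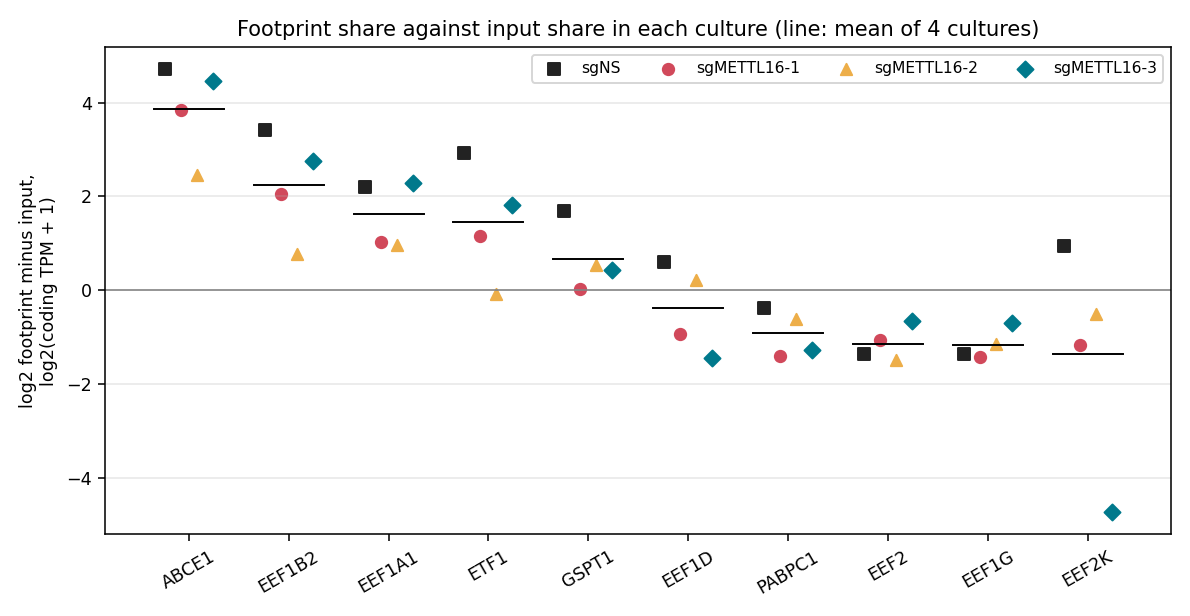
Log2 footprint minus log2 input share in each culture, on log2(coding TPM + 1), with members ordered by the mean of 4 cultures (line). ABCE1, EEF1B2, EEF1A1 and GSPT1 lie above 0 in all 4 cultures, GSPT1 at a footprint to input ratio of 1.02 in sgMETTL16-1, and EEF2, EEF1G and PABPC1 below 0 in all 4.

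Partners in elongation had different footprint shares for their input level. EEF1A1 stood at 0.322, 0.700, 0.861 and 0.264 times EEF2 in the inputs, and at 3.81, 2.98, 4.68 and 2.03 times EEF2 in the footprints. EEF1B2 stood at 0.0812, 0.116, 0.220 and 0.0795 times EEF1G in the inputs and at 2.22, 1.30, 0.834 and 0.872 times in the footprints. All 4 cultures shared the direction of both shifts, which were not tested. That direction follows from the shares given above and adds nothing to them. EEF1A1 and EEF1B2 were above their input share, and EEF2 and EEF1G below it, in every culture. The 6 known TOP mRNAs had a median log2 footprint to input difference of -0.65 (range -1.16 to 2.25). For the other 4 members it was 1.07 (range -1.36 to 3.87), so the ranges overlapped. For 80 tested ribosomal protein genes it was 1.02 (range -5.68 to 3.68), against -1.33 for all 8371 tested protein-coding genes. For the 73 ribosomal protein genes above 0 in all 8 libraries it was 1.36, against 0.89 for the 1774 such protein-coding genes.

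Other genes of the pathway were taken from 8 lists, with 52 genes in the data. In the input none of the 46 tested passed, with 1 unadjusted p under 0.05: TRMT112, the partner of the methyltransferase that acts on eRF1, was at -0.86 (limma adjusted p = 0.374). TRMT112 passed only without sgMETTL16-3, at -1.002, in the alternative that called the most genes. Without sgMETTL16-1 it was at -0.82 and without sgMETTL16-2 at -0.75. Among termination factors PAIP1, which binds PABPC1, was at 0.68 and PAIP2, its inhibitor, at 0.24. Of the others, EEFSEC (-0.29) and SECISBP2 (0.18), which serve selenocysteine insertion, DPH3 (0.22) and DPH7 (-0.17), which serve the diphthamide modification of eEF2, and METTL10 (-0.42), a methyltransferase of eEF1A, did not pass either.

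In the footprints 2 of 46 listed genes passed as higher and 2 as lower, all of them listed at 0 on 1 side, against 1.27% and 5.69% of all tested genes (6.96% in either direction). VARS, the valyl-tRNA synthetase that binds the eEF1 complex, was listed at 0 in sgNS and at 35.05, 38.9 and 13.2 TPM (limma adjusted p = 0.0393). TUFM, the mitochondrial counterpart of eEF1A, was listed at 0 in sgNS and at 102.5, 81.2 and 83.0 TPM (limma adjusted p = 0.0393). TSFM, which recharges TUFM with GTP, was at 63.1 TPM in sgNS, and NEMF, a quality-control factor of stalled ribosomes, at 13.2 TPM, and both were listed at 0 in the 3 METTL16 libraries. For TSFM and NEMF the METTL16 values have no spread and the only value above 0 is that of 1 library, so no p is given for them. VARS and TUFM also passed in translation efficiency, with limma adjusted p of 0.0249 and 0.0231, as did TSFM. Whichever METTL16 culture was left out, 0 genes passed in either comparison, so these calls ended too.

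Against the input, 1 of 45 listed genes passed, as higher, against 3.6% of all tested genes (6.65% in either direction). EIF5A, which helps the ribosome through stretches such as prolines and promotes termination, stood at 448, 475, 462 and 443 TPM in the inputs, and at 1519, 1218, 1218 and 364 TPM in the footprints (log2 difference 1.10, SE 0.26, on coding TPM, limma adjusted p = 0.0392). On TPM as deposited its sgMETTL16-3 footprint value was below the input value, and in the other 3 cultures above. EIF5A did not pass with the culture as a replicate block (limma adjusted p = 0.0646) or whichever culture was left out (limma adjusted p from 0.0519 to 0.216).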

How the data were processed

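The deposited table holds TPM per gene symbol for 8 libraries, an input and a footprint library from each of 4 cultures. Reads of 51 bases were used, and ribosomal RNA was removed, per the labels' protocols. STAR, RSEM 1.2.31 and the build GRCh38 are named in the submitters' processing notes; the gene annotation is not given in the sources used here. TPM keeps no read totals, so counting error is unknown. Gene classes came from RefSeq, which matched 23984 of 26830 symbols directly and 1394 by an older symbol.

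Inputs were tested as log2(TPM + 1), centred on the median tested gene. Footprints, translation efficiency and footprints against input were tested as log2(coding TPM + 1), where coding TPM sums to 1000000 over protein-coding genes. Genes with a mean of 1 or more entered limma 3.58.1 (R 4.3.3, intensity trend, Benjamini-Hochberg over all genes tested, threshold 0.05). The fold change scale understates changes of low genes. The script was tested on simulated data. sgNS is 1 culture and was assumed to vary like the METTL16 cultures. Nothing says that cultures were separate beyond their guides, so p-values measure no more than the spread between these samples. In the input comparison limma took each SE from the trend over genes of similar level. A gene's own spread had no weight there, so input intervals and p-values do not measure it. Alternatives were another pseudocount, no filter, no trend, other scalings, each culture left out, and the culture as a block.

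The input and footprint libraries of a culture are paired because both were made from it, per the series' design text. Their deviations from the METTL16 mean correlated by 0.04, -0.01 and 0.02 over 8914 genes.

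The genes, lists and tests were chosen with earlier results of these data known. Named were the 10 genes, METTL16, listed pathway genes past the threshold or else the 2 with the smallest input p of their list, and the 3 genes nearest to EEF1A1.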

Additional observations from a re-analysis of the deposited data

Results flagged for a closer look

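For 3 members the input and footprint differences from sgNS had opposite signs in all 3 METTL16 cultures, with the input centred on the median gene and the footprints on coding TPM. The test of the difference itself, the limma interaction, passed for none of them. The share of all tested genes with such opposite signs was not counted, and the shares below do not give it. Whether 3 members is many is therefore not known. All these differences share the single sgNS library of their kind. In the input sgNS lay above all 3 METTL16 libraries for 34.2% of tested genes and below them for 23.4%. In the footprints these shares were 23.2% and 10.7%. ETF1 was above sgNS in the input (0.74, 1.51 and 0.60 in sgMETTL16-1, sgMETTL16-2 and sgMETTL16-3) and below it in the footprints (-0.59, -0.93 and -0.24), with an interaction of -1.95 (limma adjusted p = 0.693). GSPT1 was above sgNS in the input (0.21, 0.62 and 0.22) and below it in the footprints (-1.10, -0.06 and -0.82), with an interaction of -1.35 (limma adjusted p = 0.843). EEF1G was below sgNS in the input (-0.11, -0.45 and -0.05) and above it in the footprints (0.11, 0.15 and 0.78), with an interaction of 0.25 (limma adjusted p = 0.843). On coding TPM in both kinds of library, the footprint minus input difference of EEF1G from sgNS was -0.08, 0.20 and 0.65, so its signs were not shared by all cultures on that scale.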

How the results depend on the processing

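Scaling set the sign of several small differences. In the input on TPM as deposited the estimates were 0.055 for EEF1D, 0.32 for EEF1G, 0.28 for EEF2, 0.23 for EEF2K, 0.29 for PABPC1, 0.23 for EEFSEC, 0.36 for DPH7 and 0.11 for METTL10, and over protein-coding genes 0.095 for EEF1G, 0.047 for EEF2, 0.026 for EEF2K, 0.059 for PABPC1, 0.027 for EEFSEC and 0.17 for DPH7. Footprint estimates on TPM as deposited were -0.36 for EEF1A1, -0.021 for EEF1G and -0.034 for EEF2, and centred on the median gene -2.49, -2.15 and -2.16, where the median of all genes was itself at -1.28. Translation efficiency on TPM as deposited was -0.35 for EEF1G and -0.31 for EEF2. Leaving out 1 METTL16 culture gave input ranges of -0.020 to 0.35 for DPH3 and -0.030 to 0.45 for PAIP2, a footprint range of -0.036 to 0.061 for EEF1A1, and 0 to 1 members called higher in the input. Against the input, 1 member was called higher and 0 lower with no intensity trend, 0 were called lower on TPM as deposited or centred on the median gene, where EEF1D was at 0.33 and EEF2K at 0.061, and leaving out 1 culture gave 0 to 2 higher and 0 to 1 lower. With no filter 3 were called lower, PABPC1 in addition. The cause was not tested.

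With the culture as a replicate block, 3 members were called higher and 0 lower against the input; the block changed no other call of a member. In translation efficiency it left 0 genes called of 500. Over all alternatives the number of genes called ranged from 23 to 664 in the input (310 as reported), 0 to 810 in the footprints (664), 0 to 1303 in translation efficiency (500) and 96 to 9585 against the input (593). Depth is unknown, so a gene listed at 0 may be undetected rather than absent.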
